A study of Mus musculus with 2 samples.

Results

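The *Hox* genes are the homeobox genes of the *Hoxa*, *Hoxb*, *Hoxc* and *Hoxd* clusters, and all 38 of them with a named probe on the array were taken, whether detected or not, by their gene symbol. They are 38 of 19057 named genes and are read by 57 of 45281 probes. RNA labelled as ovary came from female mice of 2 genotypes at 12 weeks of age, and each genotype was 1 RNA pool on 1 Illumina mouse whole-genome bead array. The WT mice were littermates on a C57BL/6 background, bred from heterozygotes after at least 3 generations of backcrossing. The HOM mice were homozygous for Y123F, a knock-in of the leptin receptor in which phenylalanine replaces 3 tyrosines of the intracellular part of LepRb, in the whole animal and on a C57BL/6 background, and came from the same litters as the WT mice. With pooled animals and 1 array per genotype there was no replicate error, no test and no p-value for a gene, and every difference below describes these 2 pools.

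*Hox* genes encode homeodomain transcription factors that give cells their position along the body axis. Within a cluster the genes lie in the order in which they act from head to tail, and genes at the same place in different clusters form a paralog group with a shared number. In the female mouse tract the *Hoxa* genes of the posterior groups follow one another along the Müllerian duct, with *Hoxa9* in the future oviduct, *Hoxa10* in the uterus, *Hoxa11* in the uterus and cervix and *Hoxa13* in the cervix and upper vagina, and the adult uterus goes on expressing *Hoxa10* and *Hoxa11*.

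The markers set for the labelled organ were mostly at background. On at least 1 array, 1 of 8 measured granulosa cell markers, 1 of 7 theca and luteal markers and 3 of 10 oocyte markers were detected. The detected granulosa marker was *Inha*, at 21.6 (WT) and 49.3 (HOM), and the theca and luteal one *Akr1c18*, at 17.2 and 16.7. Those of the oocyte were *Gdf9* (21.3 and 34.7), *Bmp15* on the HOM array only (17.9) and *Zp2* on the WT array only (15.2). Among the undetected, *Foxl2*, which maintains granulosa cell identity, gave signals of 6.35 (WT) and 10.1 (HOM), and the oocyte factor *Figla* was below 0 on both. In contrast, 12 of 14 markers of the uterus and Müllerian tract and 7 of 8 smooth muscle markers were detected, with 2 of 6 of squamous epithelium, 0 of 5 of kidney tubule, 1 of 6 of intestine epithelium and 1 of 5 of adipocytes. Over all named genes the share detected was 51.6%, so that most markers of the labelled organ were not detected, and a smaller share than of genes at large. Of 6 oviduct markers 3 were detected, with the secreted *Ovgp1* at 238 in WT and 144 in HOM (log2 HOM/WT -0.95). The authors' qPCR of *Ovgp1* went the other way, with more in HOM. Summed over the same probes, undetected ones included, the deposited signals of the uterine list went from 3138 in WT to 3454 in HOM. The oviduct list went from 328 to 288, mostly through *Ovgp1*, while *Rsph1* rose from 66.5 to 106. The oocyte list, mostly of undetected probes, went from 40.0 to 73.2. These signals were not scaled, and the HOM array was the brighter one (median signal of detected probes 99.2 against 89.0). After quantile normalization the median log2 HOM/WT of the 12 detected uterine markers was -0.08, with 8 below 0. Past 2-fold were *Prss29*, higher at 36.3 in WT and 138 in HOM (1.33, and 1.17 over 2 detected probes), and *Esr1*, lower (-1.44). Of all detected genes 0.418% were at least 2-fold higher and 1.49% lower. With an offset of 50 *Prss29* was not past 2-fold (0.96). The sums compare the arrays within a list and not the lists, and the part of these tissues in the *Hox* values was not tested. In bulk RNA, fewer cells of a type and less RNA per cell cannot be told apart.

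The promoter windows of 5 members are shown, to set the sequences beside the members named most below. No motif was tested against a ratio. *Hoxa9* and *Hoxa11* of one cluster and *Hoxd9* and *Hoxd10* of another differed in the direction of their HOM/WT ratio, and *Hoxd4* held the motif that posterior Hox proteins favour. The windows hold 300 bases around the annotated start, most of them before it, and are RefSeq sequences of GRCm38.p6, written 5′ to 3′ on the gene's strand. Capitals mark matches on either strand to 6 motifs. Joint sites of Hox and Pbx proteins were searched as TGATNNAT and sites of Meis proteins as TGACAG. The motif of posterior Hox proteins was taken as TTTAT followed by any base and then by a G. The TATA box that places the start of many transcripts was searched as TATAAA, the CCAAT box by its own letters, and the GC box, bound by Sp proteins, as GGGCGG.
*Hoxa9* (chr6:52227321-52227620, minus strand): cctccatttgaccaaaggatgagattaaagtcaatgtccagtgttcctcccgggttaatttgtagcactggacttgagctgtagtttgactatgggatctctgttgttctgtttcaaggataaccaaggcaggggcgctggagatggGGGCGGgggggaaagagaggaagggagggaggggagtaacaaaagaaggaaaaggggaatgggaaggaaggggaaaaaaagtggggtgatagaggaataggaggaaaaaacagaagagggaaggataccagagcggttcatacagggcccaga
*Hoxa11* (chr6:52245761-52246060, minus strand): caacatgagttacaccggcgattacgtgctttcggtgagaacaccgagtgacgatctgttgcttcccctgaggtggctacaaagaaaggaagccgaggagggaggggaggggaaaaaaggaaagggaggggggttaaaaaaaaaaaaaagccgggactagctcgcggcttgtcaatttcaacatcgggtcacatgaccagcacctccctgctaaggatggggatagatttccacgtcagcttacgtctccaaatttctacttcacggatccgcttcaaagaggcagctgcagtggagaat
*Hoxd4* (chr2:74721728-74722027, plus strand): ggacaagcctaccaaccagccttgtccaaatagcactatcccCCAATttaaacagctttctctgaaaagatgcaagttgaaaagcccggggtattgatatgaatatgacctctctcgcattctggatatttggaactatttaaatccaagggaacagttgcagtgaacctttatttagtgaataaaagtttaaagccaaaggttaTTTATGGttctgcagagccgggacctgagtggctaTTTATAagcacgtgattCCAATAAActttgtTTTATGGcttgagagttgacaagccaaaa
*Hoxd9* (chr2:74697513-74697812, plus strand): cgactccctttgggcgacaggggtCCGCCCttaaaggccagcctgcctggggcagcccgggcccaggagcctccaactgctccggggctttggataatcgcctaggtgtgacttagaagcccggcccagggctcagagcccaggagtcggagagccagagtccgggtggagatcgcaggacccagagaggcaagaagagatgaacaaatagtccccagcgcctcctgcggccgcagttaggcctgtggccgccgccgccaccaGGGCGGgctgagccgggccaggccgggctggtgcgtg
*Hoxd10* (chr2:74691641-74691940, plus strand): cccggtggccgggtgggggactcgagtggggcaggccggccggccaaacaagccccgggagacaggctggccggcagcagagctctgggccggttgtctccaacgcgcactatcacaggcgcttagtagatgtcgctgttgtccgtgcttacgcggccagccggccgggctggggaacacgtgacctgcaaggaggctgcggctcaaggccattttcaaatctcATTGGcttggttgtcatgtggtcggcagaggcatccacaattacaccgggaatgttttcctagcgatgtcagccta
Windows were found for 22 of the 38 genes, 10 of them detected on the arrays, and 1 window was counted per gene, the first in the RefSeq table. *Hoxa10* and *Hoxd11* had 2 windows each. The window counted for *Hoxa10* was the one without a CCAAT or TATA box. That for *Hoxd11* was the one without a TGATNNAT match or GC box, both of which its other window held. The window of *Hoxd9* held 2 GC boxes and no CCAAT box, that of its neighbour *Hoxd10* 1 CCAAT box and no GC box, and that of *Hoxa11* none of the 6 motifs. Over 27025 genes with a window, 35.9% held GGGCGG, against 9 of 22 *Hox* windows and 2 of the 10 of detected members, *Hoxa9* and *Hoxd9*. CCAAT was in 37.9% of all windows and 14 of 22 *Hox* windows, and TATAAA in 14.2% and 3 of 22. The posterior Hox motif was in 11.3% of all windows and 2 of 22 *Hox* windows, those of *Hoxd4* and *Hoxb8*. TGATNNAT was in 9.04% of all windows, 3 of 22 *Hox* windows and 0 of the 10 of detected members. TGACAG was in 19.3% of all windows and 2 of 22 *Hox* windows, neither of a detected member. In *Hoxd4* a CCAAT match overlaps a posterior Hox match on the other strand, and such matches are descriptions of letters, not of bound sites. The median number of CpG dinucleotides per window was 13.5 over the *Hox* genes and 7 over all genes.

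At the detection threshold used, the *Hox* genes that gave a signal were mainly those of the middle of the clusters and of paralog group 9. Detection of a probe meant a p-value below 0.01 against the negative control beads of its array. On at least 1 array 16 of the 38 *Hox* genes (42.1%) were detected, while 51.6% of all named genes were, and 15 were detected on both arrays against 45.4% of all named genes. Of paralog groups 1 to 3, which pattern the hindbrain and neck, 2 of 7 measured genes were detected, *Hoxb2* and *Hoxd3*. Of groups 4 to 8, which act in the neck and trunk, 9 of 15 were (60%, against the 51.6% of all named genes). Of groups 9 to 13, which act from the lower trunk to the tail end and in the urogenital tract, 5 of 16 were. Within this last set the detected genes were *Hoxa9*, *Hoxc9* and *Hoxd9* of 4 measured genes of group 9, *Hoxd10* of 3 of group 10 and *Hoxa11* of 3 of group 11. None of the 2 measured genes of group 12 and the 4 of group 13 was detected. By cluster, 4 of 10 *Hoxa*, 5 of 10 *Hoxb*, 2 of 9 *Hoxc* and 5 of 9 *Hoxd* genes were detected.

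**Figure D1:**
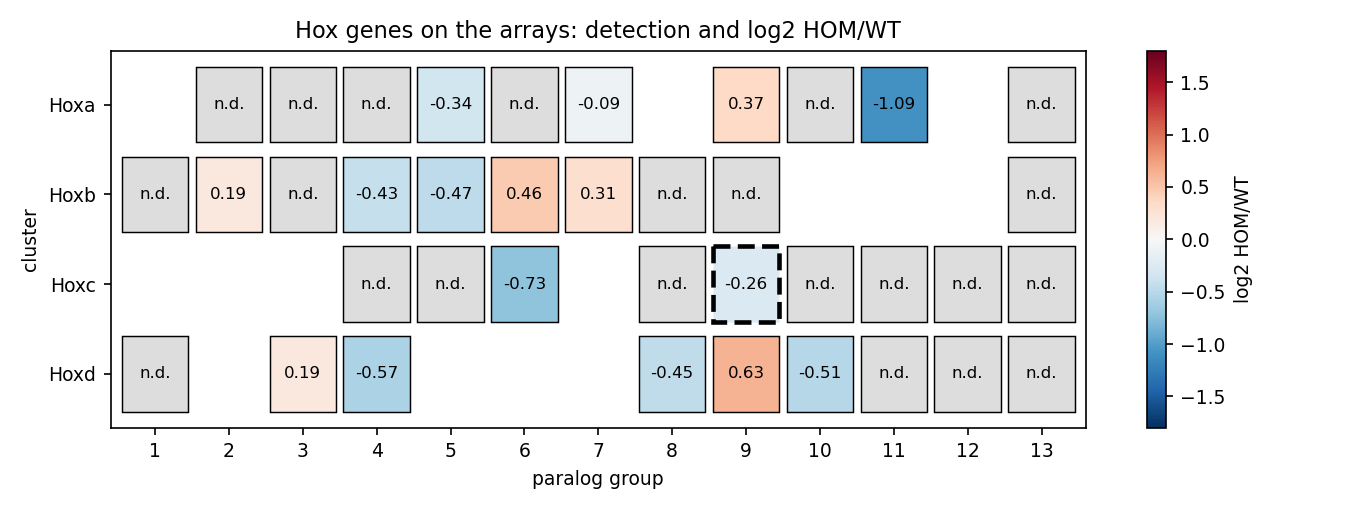
Map of the 4 *Hox* clusters (rows) by paralog group (columns). A colour and number give log2 HOM/WT of a detected gene after quantile normalization, n.d. marks genes not detected on either array, and the dashed frame marks *Hoxc9*, detected on the WT array only. Of 38 measured genes 16 carry a number, none of them in groups 12 and 13.

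Among the genes not detected was *Hoxa10*, the uterine member of the *Hoxa* series. The brighter of its 2 probes gave 10.4 (WT) and 11.6 (HOM), with detection p-values of 0.0513 and 0.0545, and the other probe 6.38 and 8.50. *Hoxa13*, of the lower tract, was read by 3 probes, and the brightest gave 9.91 and 14.4 (detection p-values of 0.0577 and 0.0203). *Hoxb13*, known from the prostate and hindgut, had -3.55 and -8.52. *Hoxd13*, of the digits and the external genitalia, had 11.6 and 11.96 on 1 probe. *Hoxd12* had 6.55 and -0.43 and *Hoxd11* 1.87 and -0.29, each on the brighter of 2 probes. All of these lay below the dimmest detected signals of 15.1 (WT) and 15.9 (HOM). The group 10 to 13 genes of the *Hoxc* cluster were no brighter, with 8.85 and 1.004 for *Hoxc10*, 5.56 and 9.32 for *Hoxc11*, 11.3 and 9.38 for *Hoxc12* and 2.58 and 1.82 for *Hoxc13*, a gene of hair and nail. *Hoxb9* had 12.9 and 4.09. The rest of the undetected genes were *Hoxa2*, *Hoxa3*, *Hoxa4*, *Hoxa6*, *Hoxb1*, *Hoxb3*, *Hoxb8*, *Hoxc4*, *Hoxc5*, *Hoxc8* and *Hoxd1*, of the anterior and middle groups. Over all 37 probes of the 22 undetected genes the signals ran from -11.9 to 13.55 on the WT array and from -15.6 to 14.4 on the HOM array.  No fold is given for these genes. With a detection p-value below 0.05 in place of 0.01, *Hoxa2*, *Hoxa4*, *Hoxa13*, *Hoxb3*, *Hoxb9*, *Hoxc12* and *Hoxd13* were added and the count was 23 of 38, still without *Hoxa10*. Of these added genes only *Hoxa4* belongs to groups 4 to 8, so the shares detected by position depend on the threshold. A signal near background shows only that this probe gave none, and probe sequences were not used here.

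In HOM, 0 *Hox* genes were 2-fold or more above WT and 1 was 2-fold or more below it, after background correction and quantile normalization. The HOM array was the brighter one, with a median signal of detected probes of 99.2 against 89.0, and for *Hoxa7* and the dimmer probe of *Hoxb7* a higher printed HOM signal goes with a log2 HOM/WT below 0 after normalization. Over all 9817 detected genes the shares were 0.418% above and 1.49% below. The lower gene was *Hoxa11*, which the mouse uterus needs for its glands and for implantation. Its single probe read 101 in WT and 48.7 in HOM, and the normalized HOM/WT ratio was 0.470 (log2 HOM/WT -1.09). Of all detected genes 1.03% were as low or lower. The 2-fold call depended on the scaling, with log2 HOM/WT of -0.92 after median scaling (0.723% of all genes then at least 2-fold lower) and -0.86 without scaling (0.509%), and on the offset, with -0.78 when 50 was added in place of 16.

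At the other end stood *Hoxd9*, a gene of the lumbar trunk and hindlimb, which was 1.5-fold or more above WT by its brighter probe. Its 2 probes read 532 and 558 in WT and 1034 and 993 in HOM, so that both were higher in HOM, with log2 HOM/WT of 0.63 and 0.51. Of all detected genes 3.91% were as high as the brighter probe or higher, and 5.27% were at least 1.5-fold higher. *Hoxc6*, a gene of the thoracic level, went the other way, from 77.7 to 49.9 (log2 HOM/WT -0.73), and with *Hoxa11* it made 2 of 16 detected *Hox* genes that were at least 1.5-fold lower, against 8.3% of all detected genes. The other 13 detected members lay within 1.5-fold. This balance turned with the scaling. After median scaling 2 members were at least 1.5-fold higher (*Hoxb6* and *Hoxd9*) and 1 lower (*Hoxa11*), against 14.1% and 4.41% of all detected genes. Without scaling *Hoxa9*, *Hoxb6*, *Hoxb7* and *Hoxd9* were higher and *Hoxa11* lower, against 19.5% and 3.39%.

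**Figure D2:**
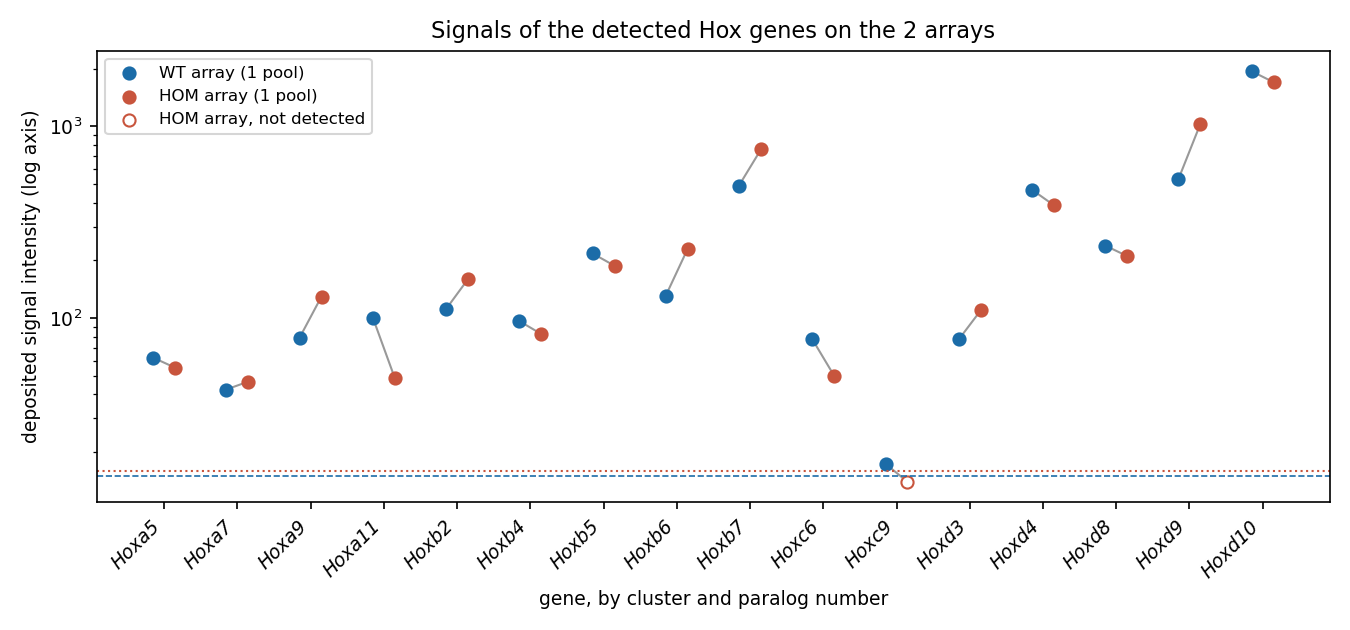
Deposited signal intensity (log axis) of the 16 detected *Hox* genes on the WT array (blue) and the HOM array (red), 1 pool each, by the brightest probe. The open circle marks *Hoxc9*, not detected in HOM. The dashed and dotted lines mark the dimmest detected probe of the WT array (15.1) and the HOM array (15.9). *Hoxa11* goes from 101 to 48.7 and *Hoxd9* goes from 532 to 1034. Heights compare the arrays within a gene, since probes differ in efficiency.

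In the *Hoxa* cluster the other detected genes lay on both sides of 0, nearer to it than *Hoxa11*. *Hoxa9*, the oviduct member, was read by 3 probes. Of these, 2 were detected, with 79.0 and 56.1 in WT and 129.7 and 91.4 in HOM, and their log2 HOM/WT was 0.37 and 0.36. The third had 0.87 and 5.69 and was not detected. *Hoxa5*, needed in the mouse for the airways and lung, had 62.2 and 55.2 (-0.34). *Hoxa7*, a trunk gene, had 42.4 and 46.7, and its sign turned with the scaling, at -0.09 with quantile normalization, 0.04 with median scaling and 0.10 without scaling.

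The *Hoxb* cluster held values on both sides of 0. *Hoxb6*, of the trunk, read 131 in WT and 230.4 in HOM (log2 HOM/WT 0.46), and its neighbour *Hoxb5*, which acts in the lung and in the nerve cells of the gut, had 218 and 187.6 (-0.47). *Hoxb4*, known from blood stem cells, had 96.6 and 82.6 (-0.43). *Hoxb2*, of the hindbrain, had 111 and 159.8 (0.19). The probes of *Hoxb7* disagreed in sign after quantile normalization. The brighter one had 492 and 759 (0.31), the other 320.3 and 359 (-0.14), and their mean was 0.08. The dimmer probe was at 0.09 after median scaling and 0.16 without scaling, so that both were then above 0.

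In the *Hoxd* cluster *Hoxd9* stood between neighbours with ratios below 1. *Hoxd10*, which like *Hoxd9* acts in the lumbar spinal cord and hindlimb, read 1941 in WT and 1700.4 in HOM (log2 HOM/WT -0.51), and *Hoxd8* had 239 and 211 (-0.45). *Hoxd4*, of the neck vertebrae, had 468 and 388 (-0.57), and *Hoxd3*, of the uppermost neck vertebrae, 77.4 and 109.7 (0.19). The annotated extents of *Hoxd3* and *Hoxd4*, *Hoxd10* and *Hoxd11*, *Hoxb3* and *Hoxb4*, and *Hoxa3* and *Hoxa5* overlap, so a transcript shared by such a pair could not be assigned to one of them. In the *Hoxc* cluster *Hoxc9*, a gene of the thoracic spinal cord, was the only other detected member. It read 17.4 in WT and 13.99, not detected, in HOM, and was at least 1.14-fold lower there by a bound against the dimmest detected probe, which makes no allowance for measurement error.

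Differences between members do not depend on a constant scaling of the arrays. The log2 HOM/WT of *Hoxd9* exceeded that of *Hoxd10* by 1.14 and that of *Hoxd8* by 1.08 after quantile normalization, and by 1.13 and 1.11 without scaling. That of *Hoxa9* exceeded that of *Hoxa11* by 1.45, and by 1.47 without scaling, and that of *Hoxb6* exceeded that of *Hoxb5* by 0.94 under both. The differences do depend on the offset and background correction. For *Hoxa9* and *Hoxa11* the difference was 1.06 with an offset of 50 and 1.76 without background correction. The log2 HOM/WT of probes for the same gene had an SD of 0.33, from 3225 genes read by more than 1 detected probe. Such probes read the same pools on the same arrays, so this SD holds no error between pools or between arrays. The detected *Hox* probe pairs differed by 0.0014 for *Hoxa9*, 0.12 for *Hoxd9* and 0.45 for *Hoxb7*. Of 12 pairs of detected genes that followed each other within a cluster, some with an undetected member between them, 7 lay on opposite sides of the all-gene median and 5 on the same side. Unrelated genes lie on opposite sides of a median about as often as on the same side. Paralogs were alike in some groups and not in others. *Hoxb4* and *Hoxd4* differed by 0.14 and *Hoxa5* and *Hoxb5* by 0.13, while *Hoxb6* and *Hoxc6* differed by 1.19, and *Hoxa9* and *Hoxd9* by 0.27.

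**Figure D3:**
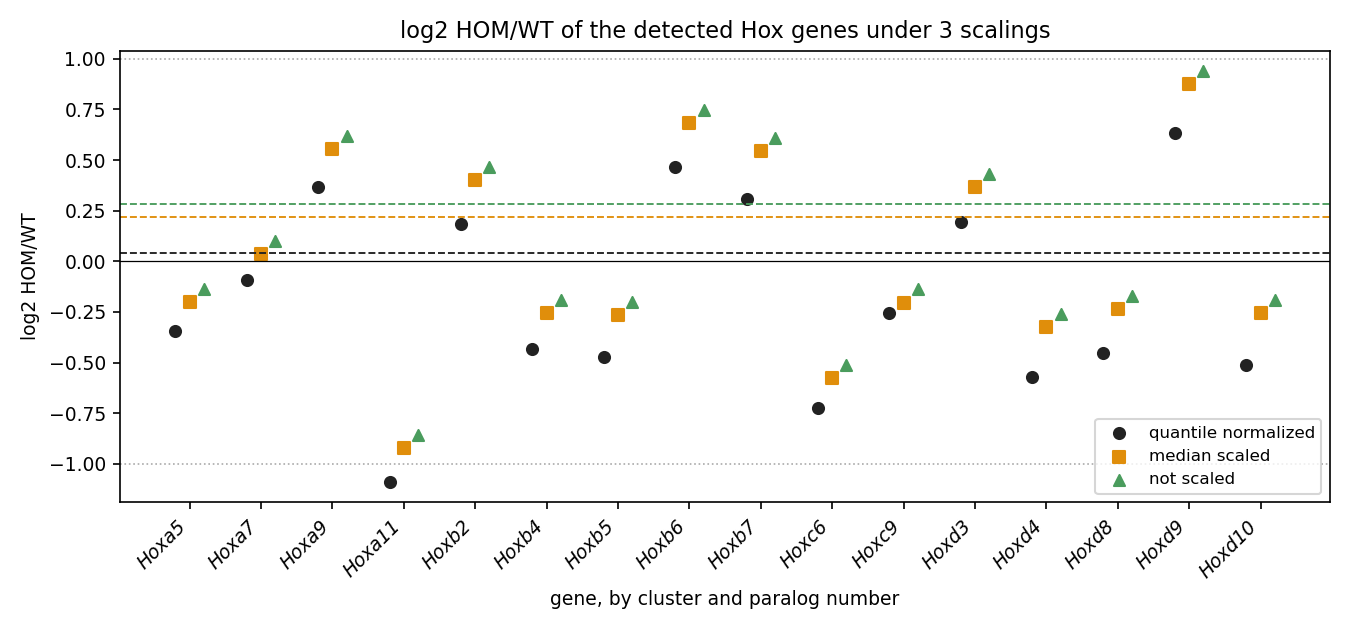
log2 HOM/WT of the 16 detected *Hox* genes by their brightest probe under 3 scalings of the arrays, with dashed lines at the median of all 9817 detected genes (0.04 quantile normalized, 0.22 median scaled, 0.28 not scaled) and dotted lines at 2-fold. *Hoxa11* passes the 2-fold line under quantile normalization only, *Hoxa7* changes sign, and all 16 genes keep their side of the dashed line of their own scaling. *Hoxc9* was detected in WT only.

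Over the 16 detected members the median log2 HOM/WT was -0.30 (-0.34 over the 15 detected on both arrays), with quartiles of -0.48 and 0.22, and that of all detected genes was 0.04, with quartiles of -0.25 and 0.29. Of the 16, 10 had a value below 0 and 6 above, against 46% of all detected genes below 0. Since scaling moved the median of all genes by more than 0.1, the members were also set against that median. The *Hox* median lay 0.34 below it after quantile normalization and 0.42 below it after median scaling and without scaling, with the same 10 genes below and 6 above each time. A log2 HOM/WT of at least 0.33 in either direction, the SD between probes, was reached by 11 of 16 *Hox* genes and by 40.7% of all detected genes, but by 8 and 54.4% without scaling. A value of at least 0.66, or 2 such SDs, was reached by 2 of 16 *Hox* genes and by 9.47% of all. This SD is a spread between probes and not the error of a HOM/WT ratio, which could not be estimated. Detected genes of groups 4 to 8 had a median of -0.43, with 7 of 9 below 0. Those of groups 9 to 13 had a median of -0.26, with 3 of 5 below 0. Where detected on both arrays, the latter had a median of -0.07, with 2 of 4 below 0. After median scaling the medians were -0.24 for groups 4 to 8 and -0.20 for the 5 genes of groups 9 to 13. Both detected genes of groups 1 to 3 were above 0, at 0.19.

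Hox proteins bind DNA together with TALE homeodomain proteins of the Pbx, Meis and Pknox families. Of 8 measured TALE genes 5 were detected, and none reached 2-fold. Their median log2 HOM/WT was 0.14, but -0.0018 with each gene taken as the mean over its detected probes. *Meis2* read 1134 in WT and 788 in HOM (-0.83, and -0.76 as the mean over 3 detected probes), and *Meis1* had 725 and 608 (-0.56, and -0.51 over 2 probes). *Pknox1* had 46.3 and 90.3 (0.57). *Pbx2* had 84.04 and 125 (0.24), with a mean of -0.0018 over its 2 detected probes. *Pbx3*, *Pbx4* and *Meis3* were not detected.

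Genes that act on *Hox* expression held values on both sides. Polycomb proteins keep *Hox* genes silent, and of 17 measured Polycomb genes 14 gave a signal. None reached 2-fold after quantile normalization, and the median was 0.14. Without scaling *Cbx7* was past 2-fold (1.004), and without background correction *Rnf2*, detected on the HOM array only, was (1.45). *Eed*, a core subunit of the methylating complex, had 95.1 and 59.4 (-0.80), *Cbx7*, which reads that methylation, had 53.8 and 124 (0.77), *Rbbp7* had 518 and 1029 (0.66, but 0.29 over 4 probes), and *Phc3* had 92.4 and 68.5 (-0.59). The MLL and trithorax proteins maintain active *Hox* genes. All 8 gave a signal. None reached 2-fold by its brightest probe, and the median was 0.00. *Kmt2a* had 535 and 651 by that probe (-0.03), but a mean of -0.55 over its 2 detected probes, so the probes disagreed. *Kmt2b* had 188 and 368 (0.63), the complex subunit *Rbbp5* 94.2 and 186 (0.61), *Psip1*, which tethers MLL to chromatin, 373 and 312 (-0.55), and *Dpy30* 456 and 484 (-0.22, and 0.02 after median scaling).

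Retinoic acid induces the anterior *Hox* genes. Of 13 measured genes of its synthesis, binding and breakdown 7 were detected, and all 7 ratios lay above 1, against 53.8% of all detected genes. The median log2 HOM/WT was 0.45, and 0.39 over the 3 detected on both arrays. No fitted value reached 2-fold, but *Cyp26a1*, *Rara* and *Rarb* did without background correction (2.22, 1.43 and 1.02), and the bounds below set no upper limit. Most were dim, and 4 of the 7 were detected on the HOM array only, so that they entered the count through the array on which they were brighter. *Aldh1a2*, the enzyme that makes retinoic acid in the embryo, read 59.0 in WT and 126 in HOM (0.68). *Cyp26a1*, which degrades it, had 5.01, not detected, and 27.6 (at least 1.27-fold higher). The receptor gene *Rarb* had 9.87, not detected, and 23.6 (at least 1.16-fold higher), and *Rara* had 5.93, not detected, and 18.8 (at least 1.02-fold higher).

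Regulators of the tract's *Hox* genes held 1 gene past 2-fold of 5 detected among 8 measured. It was lower in HOM, and 1.49% of all detected genes were at least 2-fold lower (0.509% without scaling). *Esr1*, the estrogen receptor alpha, read 374 in WT and 161 in HOM (log2 HOM/WT -1.44, and -1.14 without scaling), on 1 detected probe of 4. *Wnt7a*, which keeps *Hoxa10* and *Hoxa11* expressed in the mouse uterus, had 65.2 and 46.2 (-0.59), and the vitamin D receptor gene *Vdr* had 15.5 and 28.1 (0.33). *Wnt5a* had 516 and 560 (-0.19, but 0.05 after median scaling, and -0.46 over 3 probes). The caudal genes *Cdx1*, *Cdx2* and *Cdx4*, which act on *Hox* genes in the embryo, were not detected.

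Of 7 genes that have been placed downstream of Hoxa10 or Hoxa11 in the mouse or human uterus, 3 were detected. *Lif*, the cytokine of implantation, read 18.0 in WT and 77.4 in HOM (log2 HOM/WT 1.29, and 1.18 over 2 detected probes) and was the only one past 2-fold, though not with an offset of 50 (0.80). Of all detected genes 0.418% were at least 2-fold higher after quantile normalization. The progesterone receptor cochaperone *Fkbp4* had 1909 and 2721 (0.20), and the prostaglandin receptor gene *Ptger3* had 85.0 and 66.1 (-0.53). *Emx2*, *Itgb3*, *Igfbp1* and *Ptger4* were not detected.

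Genes beside the clusters were set against the members. Of 10 measured neighbours 4 were detected, with log2 HOM/WT of 0.19 for *Skap2* at the *Hoxa* cluster, -0.14 for *Hibadh* beyond *Evx1* on the other side of it, and 0.19 and 0.12 for *Calcoco1* and *Smug1* at the *Hoxc* cluster. *Hibadh* was at 0.12 after median scaling. The homeobox genes *Evx1* and *Evx2* at the posterior ends of the *Hoxa* and *Hoxd* clusters were not detected. The noncoding transcripts *Hottip* and *Hoxd3os1*, whose symbols fall outside the rule, were not detected by any of their 3 probes.

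**Figure D4:**
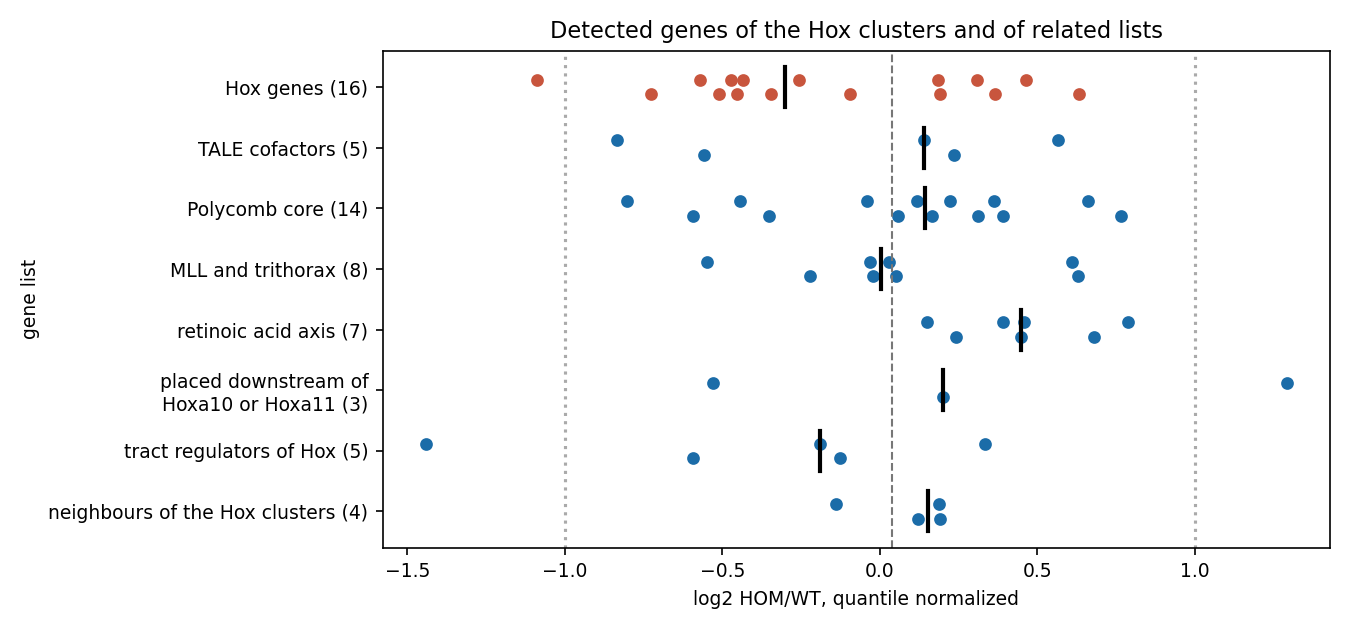
log2 HOM/WT of the detected genes of each list after quantile normalization, 1 point per gene and a black bar at the list's median, with the number of detected genes in brackets. The dashed line marks the median of all detected genes (0.04) and dotted lines mark 2-fold. *Hoxa11* and *Esr1* (-1.44) lie below the lower line and *Lif* (1.29) above the upper one.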

How the data were processed

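RNA pools of WT and HOM mice were hybridised to 1 array each. The authors deposited background-subtracted probe signal intensities from Illumina's GenomeStudio (version not given in the sources used here), not normalized between arrays, and the authors' software set each signal against negative control beads to give a detection p-value. BeadStudio and robust multichip analysis are named in the methods instead. A second deposited table of intensities was quantile normalized on the linear scale by the authors (largest difference from the same step done here 1.57). The arrays' 45281 probes were named through the platform annotation, 34885 with 1 symbol, 18 with several and 10378 without, and the latter 2 classes were not used.

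Signals were corrected with limma 3.58.1 (normexp, background from the detection p-values) in R 4.3.3, 16 was added, and log2 values were quantile normalized. Printed signals are as deposited, and log2 HOM/WT follows these steps, in which the added 16 understates changes of dim probes. A gene was read by its brightest probe (mean of both arrays). Detection was a p-value below 0.01, the threshold of the methods, and a gene was called past 2-fold from a log2 HOM/WT of 1, up or down, if either array detected it. For a probe detected on 1 array the bound is its normalized value there over the larger of its own value on the other array and that array's dimmest detected value. The dimmest detected signals, 15.1 (WT) and 15.9 (HOM), limit what could be read, as does the number of arrays. At that threshold 32.9% and 34.4% of probes were detected. The steps were tested on simulated arrays. The named genes are all *Hox* members and, of the other lists, those past 2-fold after quantile normalization and up to 4 with the largest changes. *Kmt2a*, some markers and some undetected genes are named besides. Members and lists were chosen with earlier results of these data known. The processing was varied with an offset of 50, without background correction, with median or no scaling, the authors' normalized values, with both arrays or neither required to detect a gene, other detection thresholds and folds, and the mean over detected probes.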

Additional observations from a re-analysis of the deposited data

How the results depend on the processing

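Of the 16 detected *Hox* genes, *Hoxa7* alone changed sign, under median scaling and without scaling, and *Hoxa11* alone crossed 2-fold. The count of *Hox* genes at least 2-fold lower was 1 and became 0 with an offset of 50, after median scaling, without scaling and at 3-fold, and 2 at 1.5-fold, while the count higher was 0 and became 1 at 1.5-fold. The number detected on at least 1 array was 16, 23 at a detection p-value below 0.05 and 15 below 0.001. The *Hox* median of -0.30 was -0.46 without background correction and in the authors' normalized values, -0.18 with an offset of 50, -0.14 without scaling and -0.15 with a detection p-value below 0.05, which adds dim genes.

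Median scaling and no scaling moved the other medians up. That of the TALE cofactors went from 0.14 to 0.37 and 0.43, of the Polycomb genes from 0.14 to 0.36 and 0.42, of the MLL and trithorax genes from 0.00 to 0.22 and 0.28, of the genes placed downstream of Hoxa10 or Hoxa11 from 0.20 to 0.44 and 0.51, and of the tract regulators from -0.19 to 0.0017 and 0.066. That of the cluster neighbours went from 0.15 to 0.39 without scaling. As means over detected probes the tract regulators were at -0.46 and the TALE cofactors at -0.0018. The retinoic acid genes, mostly dim, went from 0.45 to 0.80 without background correction, 0.81 in the authors' normalized values and 0.23 with an offset of 50. No paired analysis was possible because each genotype was 1 array. Differences in genes with signals near background could not be read on these arrays.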
